A study of Homo sapiens with 6 samples.

Results

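The genes described here are those of the proteasome, taken from the gene expression table of an RNA-seq experiment in NCI-N87 cells, an established gastric carcinoma line. A gene belonged to the set when it was annotated as protein-coding and its symbol was PSM followed by a letter from A to G and a number. The rule found 48 genes among the 58735 in the table, of which 19951 were protein-coding. They were 7 alpha and 7 beta subunits of the constitutive core particle, 6 ATPase and 11 non-ATPase subunits of the regulatory particle, and 5 genes of the immunoproteasome and its activator. The remaining 12 were 3 assembly chaperones of the regulatory particle, 4 of the core particle, 2 other activators, 1 inhibitor and 2 subunits known from testis and thymus. The control group (shNC, called shCtrl in the series' design) held 3 libraries of cells with the lentiviral vector and no shRNA against SCAMP1. The knockdown group (shScamp1, called shS1#1 there) held 3 libraries of cells with a lentiviral shRNA against SCAMP1, which encodes a membrane protein of the endocytic and secretory pathways. Puromycin at 2 μg/ml and a confluence of about 80% are listed for the cells of both groups. Both were stable populations made with 1 construct each, and the replicates are labelled as biological without mention of separate infections, so the p-values measure the spread between these samples only.

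The proteasome degrades proteins that carry ubiquitin chains. Its barrel-shaped core is built of alpha rings at the ends and beta rings inside, and PSMB5, PSMB6 and PSMB7 are the beta subunits that cut peptide bonds. A regulatory particle caps the core, with a ring of ATPases (the PSMC genes) that unfold the substrate and non-ATPase subunits (most PSMD genes) that bind, deubiquitinate and admit it. Interferon signalling is known to induce PSMB8, PSMB9 and PSMB10, which take the places of PSMB5, PSMB6 and PSMB7 in newly assembled cores and give the immunoproteasome. It also induces PSME1 and PSME2, the subunits of the PA28 activator, and the peptides cut by such cores feed antigen presentation by MHC class I.

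Expression was given as FPKM, that is, reads scaled to the length of the gene and the depth of the library, and the libraries held 14311769 to 15988700 reads on genes. SCAMP1 was at 11.5 to 12.6 FPKM in shNC and 1.37 to 1.99 FPKM in shScamp1 libraries (log2 fold change -2.78, standard error 0.14, limma adjusted p = 0.000248; -2.65 without shScamp1 replicate 2). All 7 epithelial markers were expressed, and their summed level was 5530 to 5810 FPKM in shNC and 9230 to 10100 FPKM in shScamp1 libraries. The members differed, with shNC and shScamp1 means of 1530 and 3000 FPKM for KRT8, 875 and 2000 for KRT18, and 1690 and 2840 for KRT19. The means were 1240 and 1380 FPKM for ERBB2, 108 and 168 for CLDN4, 55.1 and 75.7 for CDH1, and 153 and 148 for EPCAM. None of 6 leukocyte markers reached a mean of 0.5 FPKM, and their sum was 0.389 to 0.711 FPKM in shNC and 0.403 to 0.692 FPKM in shScamp1. Of 5 fibroblast markers, COL1A1 alone passed that level, the sums were 0.487 to 0.773 FPKM over all libraries, and COL1A2 and DCN were at 0. The 3 endothelial markers summed to 0.139 to 0.235 FPKM in shNC and 0.381 to 0.612 FPKM in shScamp1, mostly from VWF, with means of 0.172 and 0.444 FPKM.

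One library stood apart. In shScamp1 replicate 2 mitochondrial genes took 9.21% of reads, against 6.09% to 6.78% in the other libraries. This library was lower than both others of its group for 37 of the 45 proteasome genes that could be tested, and it was the lowest of all 6 libraries for 29. The median difference on the log2 scale between this library and the mean of replicates 1 and 3 was -0.30 over the proteasome genes and -0.02 over all genes tested. The difference moved with transcript length. For the 23 proteasome genes whose longest coding transcript was under 1600 bases the median was -0.43, for the 8 genes from 1600 to just under 3000 bases it was -0.29, and for the 14 longer ones it was -0.03. Over all protein-coding genes tested, the same classes had medians of -0.49, -0.20 and 0.14. Spearman's rho between transcript length and this difference was 0.56 over the 45 proteasome genes and 0.63 over 11519 protein-coding genes, which share a library and are not independent points. Log2 fold changes below are therefore given with and without shScamp1 replicate 2. What gave rise to the length trend was not tested.

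**Figure D1:**
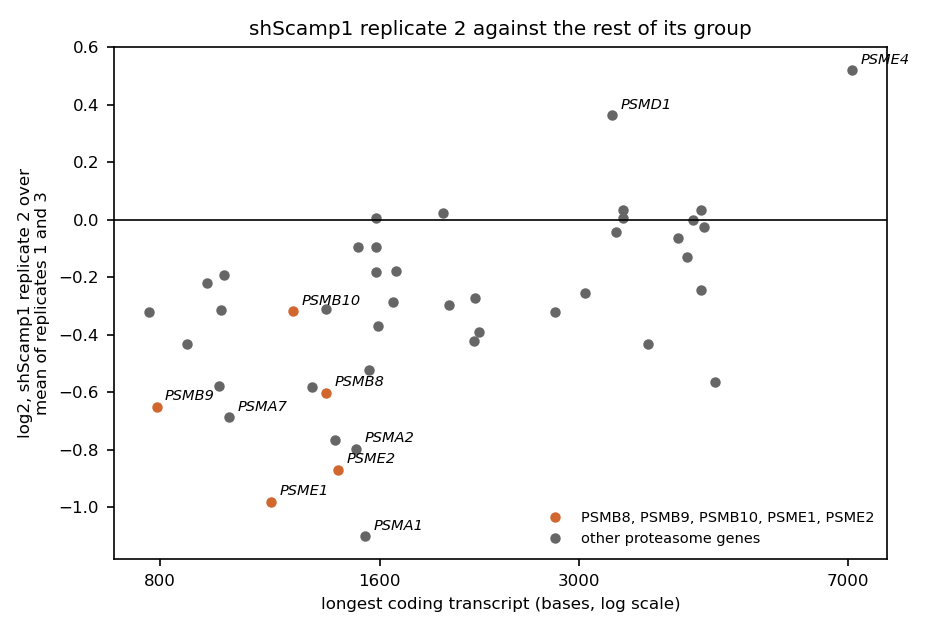
Log2 difference between shScamp1 replicate 2 and the mean of shScamp1 replicates 1 and 3 (vertical axis) against the length of the longest coding transcript in bases (horizontal log axis); each point is 1 of the 45 tested proteasome genes, and PSMB8, PSMB9, PSMB10, PSME1 and PSME2 are in orange. Most short genes lie below 0, from PSMA1 and PSME1 at the bottom to PSME4, with the longest transcript, at 0.52.

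The proteasome genes changed little as a group after SCAMP1 knockdown. With all 6 libraries, 1 of the 45 tested genes, PSMB10, was called higher at a limma adjusted p under 0.05, and 0 were called lower. Over all 15556 genes tested, 8.82% were called higher and 5.17% lower. At an unadjusted p under 0.05, 3 proteasome genes were higher and 2 were lower (PSMA2 and PSMG1), against 16.1% and 14.7% of all genes tested. At an adjusted p under 0.05, voom on the recovered reads called 0 proteasome genes in either direction, against 1300 higher and 1655 lower of all 15556 genes. No proteasome gene passed the study's criterion of a change beyond 2-fold. The log2 fold changes ran from -0.70 to 0.46 with a median of -0.04, against a median of -0.02 over all genes tested. For 12 of the 45 genes the libraries of the groups did not overlap, 7 of them higher and 5 lower in shScamp1, whereas 41.4% of all genes tested did not overlap. The 95% interval of the log2 fold change lay within 1 on either side of 0 for 44 of the 45 genes, the exception being PSMA2, and within 0.5 for 30.

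Without shScamp1 replicate 2, 9 of the 45 genes were called higher and 0 lower, against 14.9% and 13.4% of all genes tested. At an unadjusted p under 0.05 in that fit, 16 proteasome genes were higher and 2 were lower, against 20% and 20.3% of all genes. The log2 fold change was then above 0 for 34 of the 45 genes, with a median of 0.07, whereas it was above 0 for 7331 of the 15313 genes tested both ways, with a median of -0.02. The 9 genes were PSMB8, PSMB9, PSMB10 and PSME2 of the immunoproteasome group, the constitutive subunits PSMB7, PSMC2, PSMD2 and PSMD11, and the activator PSME4. In an alternative added after the data were seen, the trend of each library with transcript length was removed. The genes called higher were then PSMB10, PSMB7 and PSMD2, with 0 lower, against 11.5% and 8.40% of all genes.

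**Figure D2:**
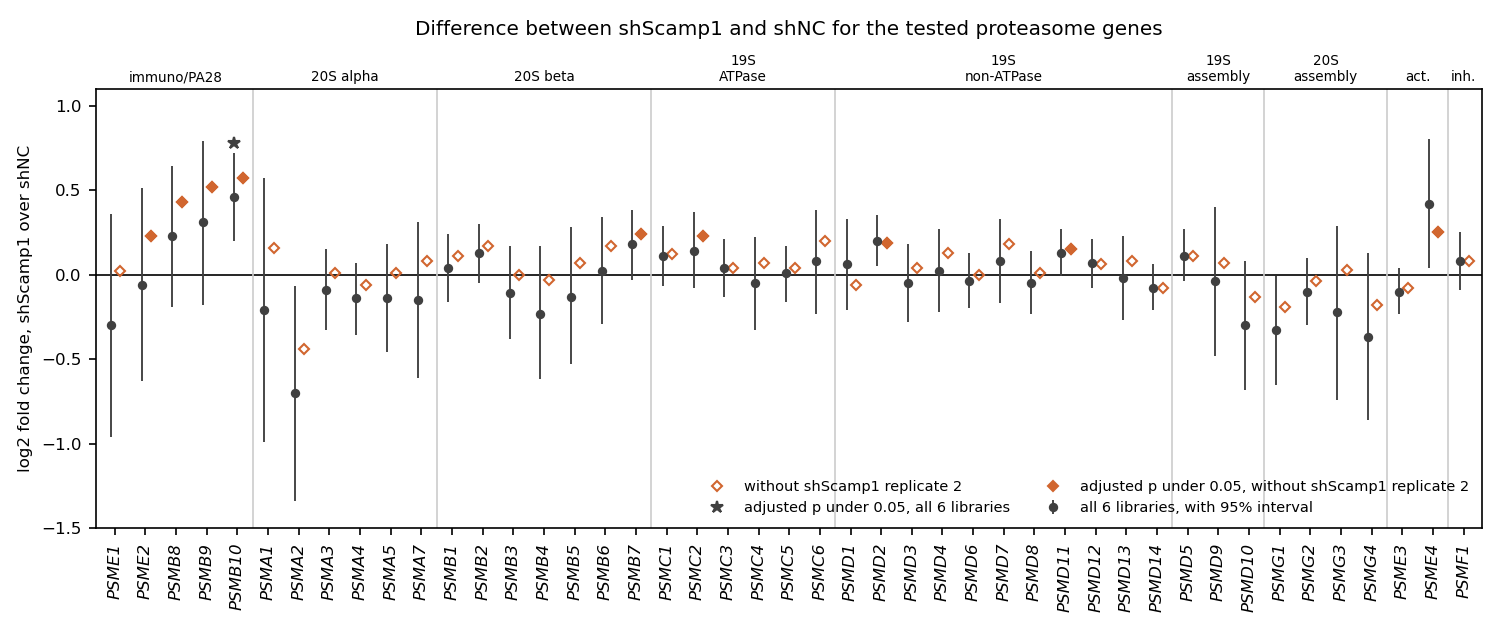
Log2 fold change of shScamp1 over shNC for the 45 tested proteasome genes by class (act., activators; inh., inhibitor). Black points and bars are estimates and 95% intervals with all 6 libraries, diamonds are estimates without shScamp1 replicate 2, and filled diamonds and the star mark an adjusted p under 0.05. PSMB10 carries the only star, and 9 diamonds are filled, all above 0.

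The immunoproteasome genes and the constitutive subunits differed in their medians, and this difference between lists was not tested. With all libraries the median log2 fold change was 0.23 over PSMB8, PSMB9, PSMB10, PSME1 and PSME2 and -0.01 over the 30 tested constitutive subunits. The ranges overlapped. The 5 genes ran from -0.30 to 0.46, with 3 above 0 and 2 below. The constitutive subunits ran from -0.70 to 0.20, with 15 above 0 and 15 below. Without shScamp1 replicate 2 the medians were 0.43 and 0.07. Over all alternatives the median of the 5 genes ran from 0.09 to 0.43, and that of the constitutive subunits from -0.08 to 0.07, and the latter was above 0 without shScamp1 replicate 2, without shNC replicate 3, with the length trend removed and with the same sum per library outside mitochondrial genes. Since RNA was taken from whole populations, more cells with a transcript and more of it per cell cannot be told apart.

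The start sites of the 5 interferon-inducible genes are shown because these genes form the contrast of this comparison. RefSeq promoters on GRCh38.p14, from 250 bases before to 50 after a start, were matched for 42 of the 48 genes. They were searched on both strands for the interferon-stimulated response element core GAAANNGAAA, the gamma-activated site motif TTCNNNGAA and the antioxidant response element core TGACNNNGC, whose matches may overlap. The sequences run from 100 bases before to 20 after the start, 5′ to 3′ on the gene's strand, with matches to GAAANNGAAA or TTCNNNGAA on either strand in capitals. PSMB8, at chr6:32844028-32844147 on the minus strand, is shown at the second of its 2 RefSeq starts, since the other held neither motif. PSMB9 lies at chr6:32854092-32854211 on the plus strand, PSMB10 at chr16:67936831-67936950 on the minus strand, PSME1 at chr14:24136094-24136213 on the plus strand and PSME2 at chr14:24146591-24146710 on the minus strand.
PSMB8: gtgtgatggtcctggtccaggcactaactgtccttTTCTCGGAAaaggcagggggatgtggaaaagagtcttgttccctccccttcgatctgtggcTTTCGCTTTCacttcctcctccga
PSMB9: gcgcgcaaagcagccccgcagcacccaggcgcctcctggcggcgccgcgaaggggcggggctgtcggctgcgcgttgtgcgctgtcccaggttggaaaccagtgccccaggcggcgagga
PSMB10: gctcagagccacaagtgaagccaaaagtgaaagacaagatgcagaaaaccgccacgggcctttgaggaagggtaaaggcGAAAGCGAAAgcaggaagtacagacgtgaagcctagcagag
PSME1: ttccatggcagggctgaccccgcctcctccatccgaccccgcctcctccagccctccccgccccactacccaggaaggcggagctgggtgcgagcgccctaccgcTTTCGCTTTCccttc
PSME2: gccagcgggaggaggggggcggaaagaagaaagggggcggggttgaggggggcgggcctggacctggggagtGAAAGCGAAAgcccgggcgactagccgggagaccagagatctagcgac
The same 10 letters, GAAAGCGAAA or their reverse complement, stood in 4 of the 5 sequences. The first printed base of the match was 4 bases upstream of the start in PSMB8, 21 in PSMB10, 28 in PSME2, and 6 bases downstream in PSME1. In PSMB8 the match thus runs across the start. PSMB8 also held TTCTCGGAA, with its first base 65 bases upstream, and the PSMB9 window held neither motif. Among the 42 matched genes, GAAANNGAAA was found in 7, TTCNNNGAA in 8 and TGACNNNGC in 15, and among all 35116 promoters of the same length in 3.57%, 7.66% and 13.3%. The counts are of genes with a match at any of their starts, and the percentages are of single promoters. A gene with several starts has more chances to match, so the 2 are not on the same scale. Besides the 4 genes above, PSMA4, PSMB4 and PSMG4 held GAAANNGAAA. These matches describe letters only and do not show that a factor was bound.

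PSMB10, the immunoproteasome subunit with trypsin-like activity, was the gene called higher with all libraries. It was at 5.31, 5.76 and 5.41 FPKM in shNC and at 8.02, 6.54 and 8.34 FPKM in shScamp1 libraries, from 155 to 226 reads. All 3 shScamp1 libraries lay above all 3 shNC libraries, and the lowest of them was replicate 2. The means were 5.50 ± 0.238 FPKM (SD, n = 3) and 7.63 ± 0.956 FPKM (SD, n = 3). This was a log2 fold change of 0.46 (standard error 0.11, limma adjusted p = 0.0386) and 0.57 without shScamp1 replicate 2 (standard error 0.06, limma adjusted p = 0.00196). The direction held in all 16 alternatives, from 0.39 to 0.60, but the call held in 6 of them and adjusted p ranged from 0.00196 to 0.141. Leaving out any 1 of the other 5 libraries ended the call. PSMB10 (ENSG00000205220, chromosome 16, 67934502 to 67937087, hg38) shares exons with a protein-coding gene on the same strand, AC040162.1, over 45.3% of its longest coding transcript. That gene was listed at a mean of 0.409 FPKM.

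PSMB8, the chymotrypsin-like subunit of the immunoproteasome, was at 15.5, 15.5 and 15.6 FPKM in shNC and at 21.9, 13.7 and 20 FPKM in shScamp1. Replicates 1 and 3 of shScamp1 lay above every shNC library and replicate 2 lay below. With all libraries the log2 fold change was 0.23 (standard error 0.17, limma adjusted p = 0.412), and it was 0.43 (standard error 0.05, limma adjusted p = 0.00297) without replicate 2. PSMB9, which takes the place of the caspase-like subunit, was at 4.48, 3.52 and 4.09 FPKM in shNC and at 5.79, 3.66 and 5.81 FPKM in shScamp1. For PSMB9 replicate 2 fell among the controls, and the other shScamp1 libraries lay above them. For PSMB9 the log2 fold change was 0.31 (standard error 0.20, limma adjusted p = 0.345), and 0.52 (standard error 0.11, limma adjusted p = 0.0174) without replicate 2. PSMB8 and PSMB9 lie next to each other on opposite strands of chromosome 6, with gene ends that overlap. PSMB8 shares 31.5% of its longest coding transcript with exons on the other strand, among them those of PSMB8-AS1, listed at 0.604 FPKM, and PSMB9 shares 17.6%.

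A comparison of each immunosubunit with the constitutive subunit it replaces needs no scaling between libraries. The constitutive partners did not pass the test with all libraries. PSMB5 was at 42.7, 42.1 and 45.4 FPKM in shNC and 46.8, 30.4 and 44.2 FPKM in shScamp1 (log2 fold change -0.13, standard error 0.17, limma adjusted p = 0.647; 0.07 without replicate 2). PSMB6 was at 43.8, 45.5 and 45.6 FPKM against 52.9, 37.4 and 48.2 FPKM (log2 fold change 0.02, standard error 0.13, limma adjusted p = 0.926; 0.17 without replicate 2, limma adjusted p = 0.0595). For both, replicate 2 was the lowest of all libraries, and 3 of the 4 other shScamp1 values lay above shNC. PSMB7 was at 84.1, 81.3 and 85.8 FPKM against 104, 86.6 and 94.5 FPKM, without overlap (log2 fold change 0.18, standard error 0.08, limma adjusted p = 0.21). Without replicate 2 the log2 fold change of PSMB7 was 0.24 (limma adjusted p = 0.0193), and with the length trend removed it was 0.30 (limma adjusted p = 0.00987).

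The PSMB8 share of the summed FPKM of PSMB8 and PSMB5 was 26.6%, 26.9% and 25.5% in shNC and 31.9%, 31.2% and 31.1% in shScamp1 libraries. The groups did not overlap, and shScamp1 replicate 2 lay between the other libraries of its group. The mean rose by 5.02 percentage points, from 26.4% ± 0.73 (SD, n = 3) to 31.4% ± 0.417 (SD, n = 3). A two-sided exact permutation test over the libraries gave p = 0.1, which 3 against 3 cannot go below. In replicate 2 both genes were low to a like degree, by -0.60 for PSMB8 and -0.58 for PSMB5 on the log2 scale. Their longest coding transcripts have 1351 and 1294 bases. The other pairs were less alike, at -0.65 for PSMB9 (792 bases) and -0.43 for PSMB6 (871 bases). PSMB10 (1218 bases) was at -0.32 and PSMB7 (980 bases) at -0.19. Whether transcript length bears on the shares was not tested. The PSMB10 share of PSMB10 and PSMB7 was 5.94%, 6.62% and 5.94% in shNC and 7.19%, 7.03% and 8.11% in shScamp1, a difference of 1.28 points without overlap (p = 0.1 by the same exact test). The PSMB9 share of PSMB9 and PSMB6 was 9.27%, 7.17% and 8.22% in shNC and 9.88%, 8.91% and 10.8% in shScamp1. These overlapped by 1 library on either side, with a difference of 1.63 points (p = 0.2 by that exact test). Without shScamp1 replicate 2 the differences were 5.13, 1.48 and 2.10 points for PSMB8, PSMB10 and PSMB9. The level of a share depends on the gene length used. FPKM was divided by all annotated exonic bases of a gene, which are 3.88 times the longest coding transcript for PSMB9 and 1.66 times for PSMB6. With the longest coding transcript as the length, an alternative added after the data were seen, the mean shares in shNC and shScamp1 were 36.8% and 42.6% for PSMB8, 17.3% and 20.3% for PSMB9, and 5.20% and 6.29% for PSMB10. The constitutive subunit held the larger share of each pair in both groups by either length. The level of the PSMB10 share is also uncertain, since PSMB10 but not PSMB7 shares exons with a coding gene on the same strand. How reads on such exons were counted is not given in the sources used here.

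**Figure D3:**
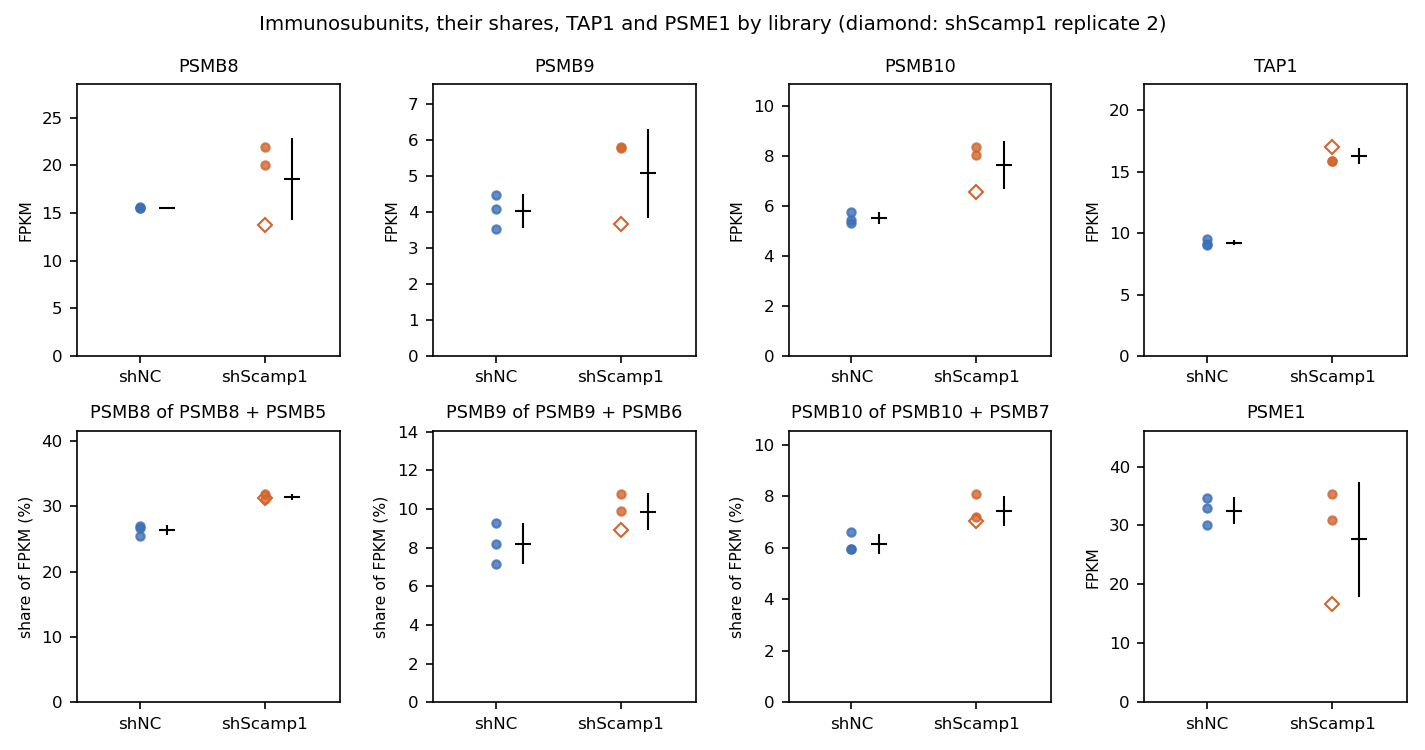
FPKM of PSMB8, PSMB9, PSMB10, TAP1 and PSME1 and the share of each immunosubunit in the summed FPKM with its constitutive partner, in percent, for the 3 shNC (blue) and 3 shScamp1 libraries (orange; open diamond, replicate 2). Horizontal and vertical lines are the mean and SD of 3 libraries. Replicate 2 is the lowest of its group for PSMB8, PSMB9, PSMB10, PSME1 and the PSMB9 and PSMB10 shares, lies within its group for the PSMB8 share, and is the highest for TAP1.

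Neither PA28 subunit was called with all libraries. PSME1 was at 30.1, 32.9 and 34.6 FPKM in shNC and 35.4, 16.7 and 30.9 FPKM in shScamp1, and PSME2 at 16.5, 15.6 and 16.6 FPKM against 19.3, 10.4 and 18.8 FPKM. In both genes replicate 2 was far below every other library, by -0.98 and -0.87 on the log2 scale against the mean of replicates 1 and 3. The log2 fold change of PSME1 was -0.30 (standard error 0.27, limma adjusted p = 0.493), and 0.02 (standard error 0.08, limma adjusted p = 0.852) without replicate 2. PSME2 changed sign, from -0.06 (standard error 0.24, limma adjusted p = 0.891) to 0.23 (standard error 0.04, limma adjusted p = 0.0141) without replicate 2. PSME1 and PSME2 lie 4395 bases apart on opposite strands of chromosome 14, and their protein products form 1 ring. Without replicate 2 the interval of the log2 fold change was -0.18 to 0.23 for PSME1 and 0.12 to 0.34 for PSME2, and the difference between these genes was not tested.

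The signalling genes upstream of the immunosubunits were higher in part. Of 14 genes of interferon signalling, 12 were tested, 5 were called higher and 0 lower by limma, against 8.82% and 5.17% of all genes, with a median log2 fold change of 0.49. At an unadjusted p under 0.05, 8 passed, against 4782 of all 15556 genes. Without shScamp1 replicate 2, 8 were called higher and 0 lower, against 14.9% and 13.4% of all genes, with a median of 0.60. The list was chosen with earlier results known. STAT2, which carries the interferon signal to the nucleus, had a log2 difference of 1.2 (standard error 0.07, limma adjusted p = 0.00051; 1.25 without replicate 2), with 4.97, 5.12 and 5.12 FPKM in shNC and 11.9, 11 and 12.4 FPKM in shScamp1. The groups did not overlap, and replicate 2 stood near the others of its group. NLRC5, an activator of MHC class I genes, was higher by 0.85 (limma adjusted p = 0.00145), and the receptor chains IFNAR1 and IFNGR1 by 0.78 and 0.54 (limma adjusted p = 0.00903 and 0.0408). Without replicate 2 these values were 0.81, 0.67 and 0.68. IRF1, an interferon-induced factor known to bind immunosubunit promoters, was at 1.82, 1.76 and 1.85 FPKM against 2.96, 2.08 and 2.63 FPKM, without overlap (log2 fold change 0.46, limma adjusted p = 0.0811, and 0.60 with limma adjusted p = 0.00758 without replicate 2). IRF8 was at 0 in all libraries. STAT2 and NLRC5 were called in all 16 alternatives, IFNAR1 in 15 and IFNGR1 in 7, where adjusted p from limma reached 0.148.

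Downstream of the immunoproteasome, 5 of 16 genes of peptide transport, trimming and MHC class I assembly were called higher and 0 lower by limma, against 8.82% and 5.17% of all genes, with a median log2 fold change of 0.43. At an unadjusted p under 0.05, 11 passed, against 4782 of all 15556 genes. Without shScamp1 replicate 2, 12 were called higher and 0 lower, against 14.9% and 13.4%, with a median of 0.54. TAP1 encodes a chain of the peptide transporter, and its gene lies within the annotated span of PSMB9 on the other strand. TAP1 was at 9.06, 9.13 and 9.51 FPKM in shNC and 15.9, 17 and 15.9 FPKM in shScamp1 (log2 fold change 0.81, standard error 0.06, limma adjusted p = 0.000997; 0.78 without replicate 2). Unlike PSMB9, it was highest in replicate 2. HLA-E and HLA-C were higher by 0.78 (limma adjusted p = 0.001) and 0.53 (limma adjusted p = 0.0275), and the peptidases ERAP1 and LAP3 by 0.37 and 0.40 (limma adjusted p = 0.0299 and 0.0302). Without replicate 2 the values of HLA-E, HLA-C, ERAP1 and LAP3 were 0.79, 0.64, 0.33 and 0.46. TAP1 and HLA-E were called in all 16 alternatives, HLA-C and ERAP1 in 9 and LAP3 in 7. B2M, the light chain of MHC class I, was at 171, 164 and 169 FPKM in shNC and at 305, 172 and 282 FPKM in shScamp1. Its replicate 2 lay at the level of the controls, and the log2 fold change was 0.55 (limma adjusted p = 0.146), or 0.80 (limma adjusted p = 0.000265) without that library.

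Among the alpha subunits, which form the outer rings and the gate of the core, none of the 6 tested was called, and all 6 log2 fold changes were below 0 with a median of -0.15. In all 6 replicate 2 was the lowest of the 6 libraries, and without it 4 of the 6 were above 0 with a median of 0.01. The smallest and the largest of these changes were those of PSMA3, at 30.6, 32.0 and 31.1 FPKM against 31.3, 25.4 and 31.8 FPKM (log2 fold change -0.09, and 0.01 without replicate 2), and PSMA2. PSMA2 was at 1.51, 1.36 and 1.40 FPKM in shNC and 1.17, 0.548 and 0.897 FPKM in shScamp1. All shScamp1 libraries were below all shNC libraries, with 40 to 128 reads. The log2 fold change was -0.70 (standard error 0.26, limma adjusted p = 0.13), the lowest of the 45 genes, and -0.44 (standard error 0.16, limma adjusted p = 0.102) without replicate 2. PSMA7 had the highest level of the alpha subunits, at 139, 138 and 143 FPKM in shNC and 149, 91.9 and 147 FPKM in shScamp1 (log2 fold change -0.15, and 0.08 without replicate 2). PSMA6 was at 0.269 to 0.452 FPKM in shNC and 0.18 to 0.358 FPKM in shScamp1, from 16 to 49 reads, and fell under the filter for testing.

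The 7 constitutive beta subunits had a median log2 fold change of 0.02 with none called, and of 0.11 without replicate 2. They ran from PSMB4, at 76.2, 74.9 and 75.4 FPKM against 75.4, 49.4 and 72.3 FPKM (log2 fold change -0.23, standard error 0.16, limma adjusted p = 0.395; -0.03 without replicate 2), to PSMB7 at 0.18. PSMB3, a non-catalytic subunit, had the highest level of all proteasome genes, with 441, 422 and 454 FPKM in shNC and 451, 352 and 427 FPKM in shScamp1 (log2 fold change -0.11, standard error 0.11, limma adjusted p = 0.563; 0.00 without replicate 2). Apart from replicate 2 its libraries overlapped between the groups.

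The regulatory particle was measured with narrow intervals. For all 6 ATPases and all 11 non-ATPase subunits the 95% interval of the log2 fold change lay within 0.5 of 0, and none was called with all libraries. The ATPases ran from PSMC4 at -0.05, or 0.07 without replicate 2, to PSMC2 at 0.14. PSMC2 was at 26.7, 27.0 and 28.5 FPKM in shNC and 33.5, 26.9 and 30.8 FPKM in shScamp1, and without replicate 2 its log2 fold change was 0.23 (standard error 0.05, limma adjusted p = 0.0262). Their levels ran from 5.07 FPKM for PSMC1, whose longest coding transcript lies to 82.1% over exons of NRDE2 on the other strand, to 62.0 FPKM for PSMC3.

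Of the non-ATPase subunits, PSMD2, the scaffold that receives ubiquitin-carrying proteins, was at 98.4, 97.5 and 102 FPKM in shNC and 113, 116 and 114 FPKM in shScamp1. The groups did not overlap, and replicate 2 stood with its group. Its change on the log2 scale was 0.20 (standard error 0.06, limma adjusted p = 0.0797), 0.19 without replicate 2 (limma adjusted p = 0.0133), and 0.20 with the length trend removed (limma adjusted p = 0.0441). PSMD11, which helps join the core and the regulatory particle, was at 23.3, 22.3 and 23.2 FPKM against 25.8, 24.4 and 25.2 FPKM. Again the groups did not overlap, and the log2 fold change was 0.13 (limma adjusted p = 0.192), or 0.15 without replicate 2 (limma adjusted p = 0.0353). PSMD14, the deubiquitinase of the lid, had the lowest value of its class at -0.08, with 18.9, 18.8 and 19.3 FPKM against 17.9, 18.3 and 18 FPKM and no overlap (limma adjusted p = 0.397; also -0.08 without replicate 2). PSMD1 went against most of the set in replicate 2, with 43.0 FPKM there and 33.1 to 35.7 FPKM in the other libraries, and its log2 fold change was 0.06 with and -0.06 without that library. Levels in the class ran from 5.00 FPKM for PSMD6 to 107 FPKM for PSMD3.

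The assembly chaperones of the core, which guide the alpha and beta rings together and leave the finished particle, all had log2 fold changes below 0, and none was called. PSMG1 was at 12.5, 13.7 and 12.7 FPKM in shNC and 12, 8.48 and 10.8 FPKM in shScamp1, without overlap. Its log2 fold change was -0.33 (standard error 0.13, limma adjusted p = 0.154), and -0.19 without replicate 2 (limma adjusted p = 0.0858). PSMG4 had the lowest value at -0.37 (standard error 0.21, limma adjusted p = 0.275; -0.18 without replicate 2) with 1.87, 1.72 and 1.55 FPKM against 1.70, 0.982 and 1.33 FPKM, and PSMG2 was nearest to 0 at -0.10, or -0.04 without replicate 2. PSMG3 was the most abundant, at 22.7 FPKM on average, and its log2 fold change was -0.22 with all libraries and 0.03 without replicate 2.

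The chaperones of the regulatory particle ran from PSMD10, better known as the oncoprotein gankyrin, at -0.30 (standard error 0.16, limma adjusted p = 0.249; -0.13 without replicate 2), to PSMD5 at 0.11 (standard error 0.06, limma adjusted p = 0.283; also 0.11 without replicate 2). PSMD10 was at 13, 11.2 and 12 FPKM in shNC and 11, 7.63 and 11 FPKM in shScamp1. PSMD5 was at 15.6, 16.1 and 14.6 FPKM against 16.7, 16.8 and 16.7 FPKM. In neither gene did the groups overlap, and for PSMD5 the shScamp1 libraries, replicate 2 included, had an SD of only 0.0474 FPKM. PSMD9 was at 0.871 to 0.942 FPKM in shNC and 0.749 to 1.03 FPKM in shScamp1 (log2 fold change -0.04, and 0.07 without replicate 2).

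Neither of the other activators was called with all libraries. PSME4 encodes PA200, a large nuclear activator of the core, and was at 11.2, 9.97 and 11 FPKM in shNC and 12.3, 18.3 and 13.2 FPKM in shScamp1. All shScamp1 libraries were above shNC, and replicate 2 was the highest. The log2 fold change was 0.42 (standard error 0.16, limma adjusted p = 0.13), and 0.25 (standard error 0.07, limma adjusted p = 0.0472) without replicate 2. PSME3, the PA28 gamma subunit of the nucleus, was at 52.4, 52.3 and 52.1 FPKM against 50.4, 48.0 and 48.4 FPKM without overlap, and changed by -0.10 on the log2 scale (standard error 0.06, limma adjusted p = 0.31; -0.08 without replicate 2). The inhibitor PSMF1 was at 21.6, 21.6 and 24.0 FPKM against 24.4, 23.7 and 22.9 FPKM, which overlapped (log2 fold change 0.08, limma adjusted p = 0.485; also 0.08 without replicate 2). PSMA8, the testis alpha subunit, and PSMB11, the beta subunit of the thymic cortex, had 0 reads in all 6 libraries.

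**Figure D4:**
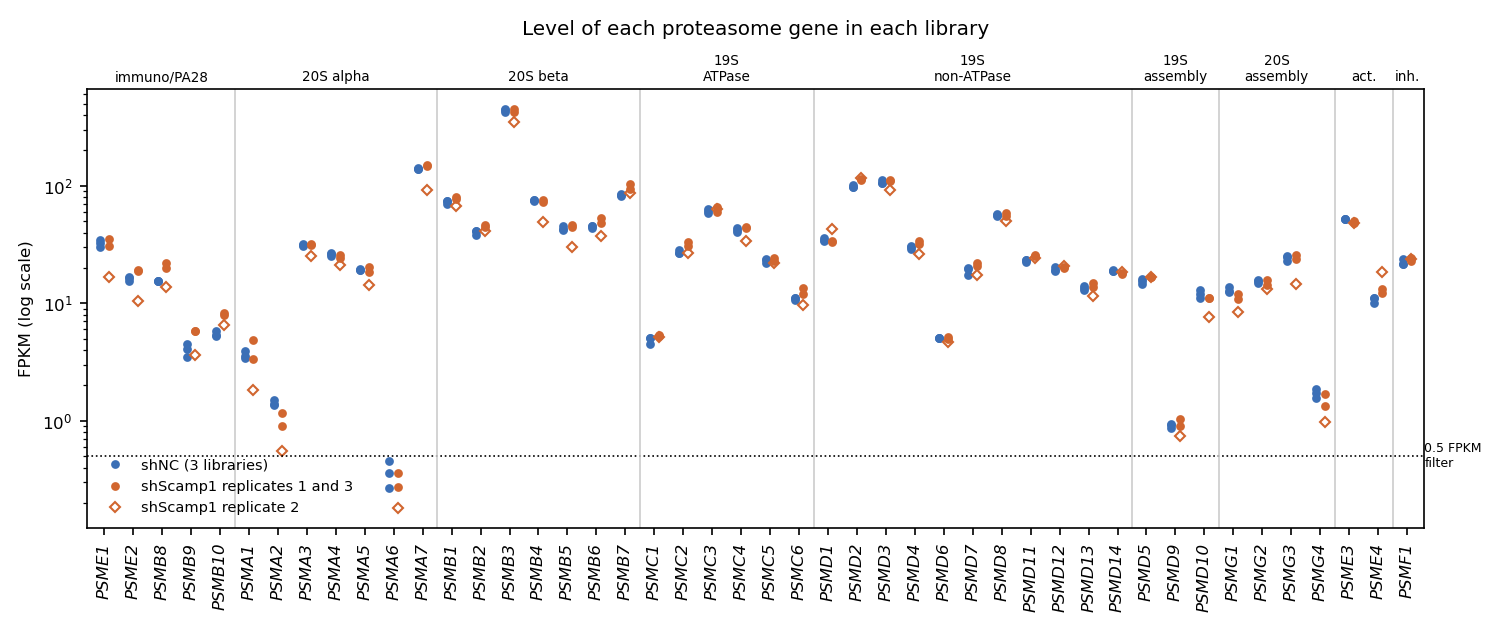
FPKM (log axis) of the 46 proteasome genes with reads in each library, by class; blue points are shNC libraries, filled orange points shScamp1 replicates 1 and 3, and open diamonds shScamp1 replicate 2. Levels span from under 0.5 FPKM (dotted line, the filter for testing) for PSMA6 to PSMB3 at the top, and for most genes the diamond is the lowest point.

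Subunits that stand in equal number in the particle had unequal RNA levels. The mean FPKM over all libraries was 18.5 to 135 for PSMA3, PSMA4, PSMA5 and PSMA7, but 3.49 for PSMA1, 1.15 for PSMA2 and 0.315 for PSMA6. PSMA1, PSMA2 and PSMA6, together with PSMD9 at 0.902 FPKM and PSMB10 at 6.56 FPKM, were the 5 proteasome genes whose exons are shared with another protein-coding gene on the same strand. The shared part of the longest coding transcript was 52.5% for PSMA1, 52.5% for PSMA2, 81.0% for PSMA6, 43.8% for PSMD9 and 45.3% for PSMB10. These 5 genes ranked between 38 and 46 of 48 by level, and the overlapping genes were themselves listed at 0 to 0.409 FPKM. The length used for FPKM was also larger than the longest coding transcript by a factor that differed between genes, from 1.15 for PSMB2 to 6.32 for PSMA6 among the genes with reads. By the longest coding transcript, an alternative added after the data were seen, PSMA3, PSMA4, PSMA5 and PSMA7 averaged 28.4 to 236 FPKM and PSMA1, PSMA2 and PSMA6 averaged 7.55, 4.12 and 1.99 FPKM. By that length PSMD6 moved from rank 40 to rank 30, and the 5 genes with shared exons ranked between 40 and 46. The submitters' notes name featureCounts as the counting tool, and how it treated reads on shared exons, and strand, is not given in the sources used here. The parts of the overlap and of the choice of length in these levels were not tested, so the levels are uncertain while their differences between the groups were measured on the reads that were counted. The 32 proteasome pseudogenes listed in the table held 429 reads in all, or 0.0841% of the 510205 reads on the proteasome genes.

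Of the proteasome genes on chromosome 17, the 2 with the highest levels, PSMB3 and PSMD3, are those closest to ERBB2, a receptor gene that NCI-N87 cells are known to amplify. Genes elsewhere were as high as PSMD3, with means over all libraries of 135 FPKM for PSMA7 on chromosome 20 and 107 FPKM for PSMD2 on chromosome 3, against 107 FPKM for PSMD3. PSMB3 (38752736 to 38764231, hg38) is 924 kb and PSMD3 (39980797 to 39997960) 250 kb from ERBB2, which was at a mean of 1240 FPKM in shNC and 1380 FPKM in shScamp1. The other 5 proteasome genes on this chromosome, PSMB6, PSMC5, PSMD11, PSMD12 and PSME3, had group means from 19.5 to 52.3 FPKM. GRB7, MIEN1 and STARD3, the listed genes nearest to ERBB2, averaged 389, 387 and 255 FPKM. CASC3 and MED24, 410 and 289 kb from it, averaged 49.8 and 34.2 FPKM. Copy number was not measured in these libraries, and a link between position and level was not tested. Of ERBB2 and 5 genes near it, GRB7 and CASC3 were called higher and 0 lower, against 8.82% and 5.17% of all genes. The log2 fold changes were 1.07 for GRB7 (limma adjusted p = 0.00227) and 0.32 for CASC3 (limma adjusted p = 0.0436). Of all 6, 3 were above 0 and 3 below, and MED24 was at -0.20 without overlap (limma adjusted p = 0.0879). PSMB3 and PSMD3 were at -0.11 and -0.05. Without replicate 2 the log2 values of GRB7, CASC3, PSMB3 and PSMD3 were 1.18, 0.26, 0.00 and 0.04. In that fit 2 of the 6 were called higher and 1 lower, against 14.9% and 13.4% of all genes. The lower one was MED24 at -0.17 (limma adjusted p = 0.03). CASC3 was called in 6 and MED24 in 3 of 16 alternatives.

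Among 20 partners of the proteasome, 2 were called higher and 1 lower, against 8.82% and 5.17% of all genes, with a median log2 fold change of -0.01. Without shScamp1 replicate 2, 4 were called higher and 2 lower, against 14.9% and 13.4%, with a median of 0.02. NFE2L1, the factor known to drive proteasome genes when the proteasome is impaired, was at 33.8, 33.9 and 35.4 FPKM in shNC and 41.8, 50.1 and 41.6 FPKM in shScamp1 (log2 fold change 0.37, standard error 0.09, limma adjusted p = 0.0436). NFE2L2, the factor of the antioxidant response, was at 11.5, 11.9 and 10.7 FPKM against 15, 14 and 15.5 FPKM (log2 fold change 0.38, standard error 0.07, limma adjusted p = 0.021). UCHL5, a deubiquitinase of the regulatory particle, was at 12.8, 12.1 and 11.6 FPKM against 9.48, 10.2 and 10.1 FPKM (log2 fold change -0.29, standard error 0.07, limma adjusted p = 0.0415). In all of these genes the groups did not overlap, and without replicate 2 their log2 fold changes were 0.28, 0.42 and -0.31. NFE2L1 and UCHL5 were each called in 7 of 16 alternatives and NFE2L2 in 10, where adjusted p from limma reached 0.158, 0.165 and 0.094. POMP, the maturation factor of the core, was at 90.4, 85.9 and 85.9 FPKM against 94.2, 59.0 and 84.0 FPKM (log2 fold change -0.17, limma adjusted p = 0.539; 0.03 without replicate 2), and was again lowest in replicate 2.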

How the data were processed

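RNA-seq libraries of 3 shNC and 3 shScamp1 NCI-N87 samples were analysed. Expression was deposited by the authors as 1 FPKM value per gene in each library. The submitters' notes name HISAT2 2.0.5, featureCounts 1.5.0-p3, DESeq2 1.20.0 and build hg38, and coordinates of all 58735 genes equalled GENCODE 29. The strand setting is not given in the sources used here. FPKM times gene length gave whole reads, within 0.05, for 100% of values tested, which gave the depths. No deposited value was changed in the main test, limma 3.58.1 in R 4.3.3 (lmFit, eBayes with trend) on log2(FPKM + 0.1) for the 15556 genes averaging 0.5 FPKM or more, with Benjamini-Hochberg adjustment over all of them. Fold changes on this scale understate those of low genes. Called means an adjusted p under 0.05. The limma steps were tested on simulated data. Shares were tested in Python 3.11.15 with scipy 1.17.1. Alternatives covered the pseudocount, filter, scaling, trend, voom, replicate block, each library left out, the length trend, and the longest coding transcript as gene length. Every gene of the set was accounted for. Those named are the immunoproteasome genes, their partners, genes called, those under the filter, and the extremes of each class in level and log2 fold change. Any further gene was picked with its values in view. The members and lists were chosen with earlier results of these data known. Some genes of the lists are not reported here.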

Additional observations from a re-analysis of the deposited data

How the results depend on the processing

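With all libraries 1 proteasome gene was called higher. That count was 0 without a filter on low values, with the same sum per library, without the trend in limma, with voom on recovered reads and with the replicate block, 3 with the trend with transcript length removed, and 0 to 9 when each library was left out, with 9 without shScamp1 replicate 2. Of all genes, 1372 were called higher in the main test, 1100 of 33572 without the filter, 1240 with the same sum and 1208 without the trend. With voom it was 1300, with the length trend removed 1784, and 659, 651 and 674 without shNC replicates 1, 2 and 3. Without shScamp1 replicates 1, 2 and 3 it was 1143, 2296 and 715. The count of proteasome genes called lower was 0 in every alternative, against 166 to 2078 of all genes. PSME2 turned from -0.06 to 0.23 without shScamp1 replicate 2, and ran from -0.21 to 0.23 over the libraries left out. With reads not divided by gene length, the difference in share was 5.91 points for PSMB8 and 2.85 points for PSMB9. With the longest coding transcript as the length it was 5.86 and 3.03 points. Of 719 single-gene values under the 16 alternatives, 699 stayed on the same side of the threshold, called or uncalled. Among these 699, 39 uncalled values changed sign. Of the rest, 10 lost the call (all PSMB10), 9 gained one and 1 reversed. The replicate block called 0 proteasome genes and 704 higher and 254 lower of all genes. The deviations of same-numbered libraries from their group means had correlations of -0.0351, 0.0325 and 0.0668, and those of different-numbered libraries ran from -0.0841 to 0.0537. With 3 libraries per group these values cannot settle whether same-numbered samples shared a batch, and the labels name none. PSMB10 rested on 155 to 226 reads per library and PSMA2 on 40 to 128, which limits the precision of their values.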
